A study of Mus musculus with 23 samples.

Results

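In the second of the 2 sets of mouse embryonic stem cell (ESC) samples in this series, 4 title codes of untreated cells occur on a pair of libraries each. The lower replicate number of each pair, here the first library, was compared with its partner, the second library. The members are therefore 8 of the 23 samples of the series, 4 first and 4 second libraries, picked out by title code and replicate number and not by a measured value. The file names carry the same order, since the second library of each code has an added 2 at its end. No label says what the codes stand for, what separates the libraries of a pair, or whether the cells of a pair were grown apart. The p-values below therefore speak only of the spread among these libraries, which may be technical.

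All 8 libraries are from R1 ESCs, a male mouse line, grown on mouse embryonic fibroblast (MEF) feeders in medium with fetal bovine serum and LIF. Codes 2a and 2b are labelled wild type (WT). Code 2d is the knockout line KO1 and code 2e the knockout line KO2, both labelled SET-/-. Each knockout line enters here with a single pair, so line and pair cannot be told apart within KO. A further 2 untreated libraries of the set, 2c of KO1 and 2f of KO2, have no partner and were kept out of the tests. The series also holds R1 WT and SET knockout ESCs of a first set, R1 cells after 4 d of retinoic acid, and KH2 ESCs with a doxycycline-inducible SETa transgene. Its design compares WT with SET knockout cells, and SET is a histone chaperone and an inhibitor of the phosphatase PP2A.

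Serum and LIF keep ESCs in a naive state by way of the JAK-STAT3 pathway, in which LIF-activated STAT3 induces both Klf4, a naive pluripotency factor, and Socs3, which shuts the receptor's signal off again. FGF4, made by the cells themselves, signals through ERK and drives the opposite way, towards the formative state that precedes germ layer choice. The early response genes of these pathways are induced and lost quickly. The other genes used to mark the difference are Rasd1, a Ras-like protein induced by glucocorticoids, and Ppp1r3b, which brings protein phosphatase 1 to glycogen.

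The promoters of 5 genes, picked after their values were seen, were searched for the STAT element TTCNNNGAA, which reads the same on both strands. They were those of Socs3, Klf4, Ier3, Inhba and Irf1, a transcription factor gene that interferon and STAT signals induce. Socs3 and Irf1 each have 1 match, in the 250 bases before the RefSeq start, and the promoters of Klf4, Ier3 and Inhba have 0, which says only that these letters are not in this window. The stretches with a match are shown because Socs3 and Irf1 both rose in the second libraries. The 89 bases around each match (GRCm38.p6, RefSeq) are given 5′ to 3′ on the gene's strand, with the element in capitals. The Socs3 stretch is chr11:117969472-117969560 on the minus strand and its element begins at -154 from the RefSeq start. That stretch lies inside the Ensembl span of Socs3 (117966079 to 117970047), so it is upstream of the RefSeq start only. The Irf1 stretch is chr11:53769884-53769972 on the plus strand and its element begins at -90.
Socs3: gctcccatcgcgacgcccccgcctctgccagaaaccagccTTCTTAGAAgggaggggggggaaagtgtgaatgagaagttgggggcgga
Irf1: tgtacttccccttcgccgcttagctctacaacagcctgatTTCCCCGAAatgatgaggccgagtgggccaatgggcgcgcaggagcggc
The flanks of the elements differ in sequence, and the matches are descriptions of letters and not shown binding sites. RefSeq promoters, from 250 bases before to 50 after the start, were at hand for 8084 of the 10484 genes tested. The element was present in 6.59% of them, in 6.23% of the promoters of genes that rose and in 7.86% of those that fell. The shares of the AP-1 element TGANTCA were 4.12% of all, 4.49% of those that rose and 4.09% of those that fell. The cAMP response element TGACGTCA stood at 3.56%, 3.24% and 4.72% in the same order, and the E-box CACGTG at 10.81%, 7.73% and 11.64%. A TGACGTCA match never holds a TGANTCA match.

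Counts assigned to genes ran from 1423772 to 7941952 in the first and from 1770213 to 4106207 in the second libraries, higher in the second in 3 of 4 pairs, and the floor of 3 counts lay between 0.378 and 2.107 CPM (counts scaled to a common library size). Set itself, the targeted gene (chromosome 2, 30057378 to 30072577, plus strand), stood at 1072 and 1297 CPM in the first WT libraries and 544 and 269 in the first KO libraries. Its second-library levels were 1223 and 1447 CPM for WT, and 539.9 and 412 for KO. The KO libraries were below the WT libraries in each position, although KO against WT did not pass edgeR's quasi-likelihood test in either (log2 -1.52, adjusted p = 0.139, and -1.49, adjusted p = 0.0998). Set did not pass between positions (log2 0.23, SE 0.11, adjusted p = 0.188). A 3′ tag outside an edited exon does not check the lesion. Defining ESC genes were present in all 8 libraries, with Sox2 at 257 to 476 CPM and Nanog at 71.7 to 150.2. Pou5f1, the gene of OCT4, was at only 2.57 to 9.99 CPM, and because this gene has near-identical copies elsewhere in the genome its count is uncertain.

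Libraries resembled those of the same position and genotype more than their partner of the same code. Over the 10484 genes, Pearson correlation of log2(CPM + 1) was 0.9808 between the first libraries of 2a and 2b and 0.9766 between their second libraries. Between the first and the second library of a code it was 0.9575 for 2a and 0.9680 for 2b. In KO it was 0.9834 between the second libraries of 2d and 2e, against 0.9655 within 2d and 0.9557 within 2e. The first libraries of 2d and 2e, at 0.9601, were the exception, being less alike than the libraries of 2d and more alike than those of 2e. These points share libraries and depth, so they are given as descriptions. The partners also differed beyond counting noise, with a chi-square per gene of 4.95 to 11.1 within codes, so none of the 4 pairs looks like a single library deposited in duplicate.

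**Figure D1:**
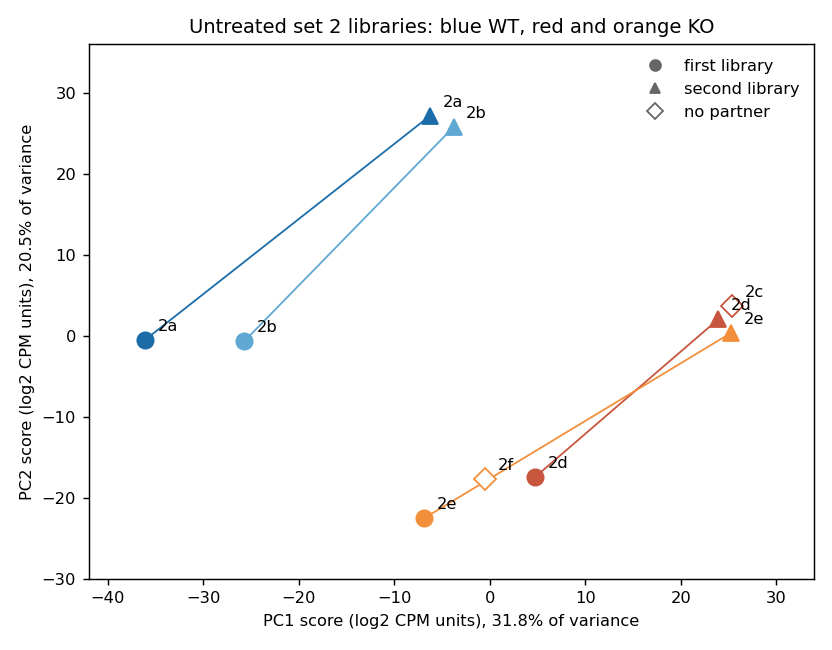
Scores of the 10 untreated set 2 libraries on PC1 (31.8% of variance) and PC2 (20.5%) of log2(CPM + 1). Lines join libraries of the same code, circles are first and triangles second libraries, and open diamonds are 2c and 2f. All 4 lines run from lower left to upper right, 2c lies beside the second KO libraries and 2f among the first KO libraries.

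Between positions, 921 of 10484 genes tested passed an adjusted p of 0.05 in edgeR's quasi-likelihood test with the code as a block, which is 8.78% of the genes tested. Of these 505 (4.82%) were higher and 416 (3.97%) were lower in the second libraries. Changes of more than 2-fold made up 135 of the 921, and the median over all genes tested was 0.01 on the log2 scale. The sign was the same in all 4 pairs for 889 of the 921, against 31.2% of all genes tested, a share that the test itself selects for. In 601 of them the 4 first and the 4 second libraries did not overlap, against 1223 (11.67%) of all genes tested. The test selects for such separation as well, so it adds no support for a called gene. The count fell to 335 without code 2a and to 365 without 2b, while it was 929 without 2d and 1067 without 2e. The DESeq2 Wald test called 470. In edgeR 392 genes were called with no replicate block, and 1158 with genotype in place of the code.

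The marker genes of the difference were higher in the second library of every pair except for Klf4. Socs3 (chromosome 11, 117966079 to 117970047, minus strand) stood at 5.51, 11.3, 12.5 and 9.32 CPM in the first libraries of 2a, 2b, 2d and 2e. In the second libraries it stood at 48.2, 62.6, 32.6 and 41.1 CPM. The groups were far apart, and Socs3 rose by 2.23 on the log2 scale (SE 0.22, adjusted p = 2.20e-05). Ppp1r3b (chromosome 8, 35375739 to 35388139, plus strand) was at 0, 1.39, 3.70 and 2.87 CPM in the first and at 5.17, 9.07, 10.8 and 12.2 in the second libraries. It also rose without overlap (log2 2.27, SE 0.41, adjusted p = 0.00245), on few counts, and the DESeq2 Wald test did not call it. Rasd1 (chromosome 11, 59963181 to 59964944, minus strand) had too few counts for the test. Its levels were 0, 0.633, 0 and 3.59 CPM in the first and 6.31, 4.53, 7.57 and 4.44 in the second libraries, again with no overlap. In pair 2e Rasd1 was nearly level, with a difference of 0.246 in log2(CPM + 1) on 5 and 19 counts. Klf4 (chromosome 4, 55527143 to 55532466, minus strand) went the other way, from 565, 483, 203 and 289 CPM to 282, 278, 153 and 159. Klf4 fell by 0.77 on the log2 scale (SE 0.11, adjusted p = 0.000404) and was lower in 4 of 4 pairs, but because WT was higher than KO in each position the 4 first and 4 second libraries overlapped.

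**Figure D2:**
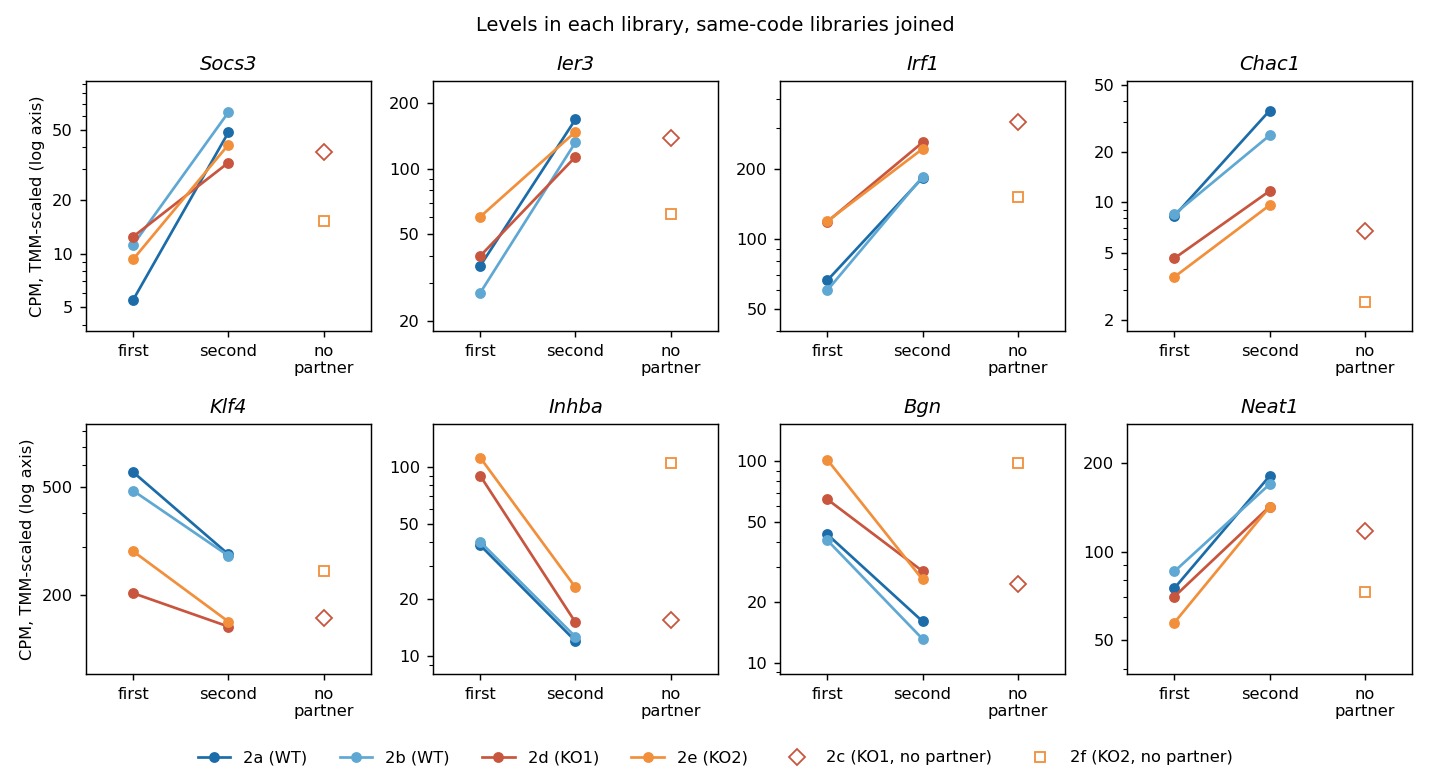
CPM of 8 genes on a log axis in each library, with first and second libraries of a code joined by a line and 2c and 2f as open symbols. Socs3, Ier3, Irf1, Chac1 and Neat1 were higher and Klf4, Inhba and Bgn lower in the second library of every pair.

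Genes that respond to LIF and STAT3 were split in the main fit. Of 19 tested, 2 rose and 3 fell, against 4.82% and 3.97% of all genes tested, and 8 were called without code 2e. With no replicate block 2 rose and 0 fell. With the DESeq2 Wald test, without 2a or without 2b, 2 rose and 2 fell. Ier3, an early response gene that limits apoptosis, went from 35.8, 26.9, 39.8 and 60.2 CPM to 169, 132, 114 and 148 (log2 1.84, SE 0.16, adjusted p = 1.01e-05), so every second library was above every first. Socs2, a further receptor feedback gene, fell by 0.55, and Lifr, the LIF receptor itself, fell by 0.40 on the log2 scale. Stat3 RNA was level, at 217 ± 12.5 CPM in the first and 216 ± 29.8 in the second libraries (SD, n = 4). Irf1, singled out after its values were seen, stood at 66.2, 60.0, 118 and 119 CPM in the first and at 183, 185, 260.2 and 244 in the second libraries. It rose by 1.32 (SE 0.12, edgeR adjusted p = 5.43e-06). Irf1 was the only called gene among 14 interferon response genes tested, which is 7.1% against 8.78% of all genes tested.

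Early response genes were likewise not of a single direction. Of 21 tested, 4 rose (Ier3, Btg2, Jun and Ier5) and 2 fell (Arc and Klf6), against 4.82% and 3.97% of all genes tested. Egr4, an activity-induced zinc finger factor, fell from 47.6, 41.0, 25.9 and 26.5 to 15.5, 12.2, 5.53 and 7.48 CPM (log2 -1.83, SE 0.20, adjusted p = 3.20e-05). Arc, a synaptic protein known as an early response gene, fell from 14.9 ± 4.98 to 4.79 ± 1.10 CPM (adjusted p = 0.00212). Btg2, an antiproliferative early response gene, rose by 0.78 (SE 0.15), from 27.998 ± 9.79 to 48.4 ± 15.7 CPM. Of 16 genes of FGF and ERK feedback, 3 rose and 3 fell, against the same shares of all genes tested. Those that fell were the ETS factors Etv4 (log2 -0.99, SE 0.14) and Etv1 (-0.91, SE 0.18), transcribed in response to FGF, and the ERK phosphatase Dusp5 (-0.81, SE 0.16). Those that rose were the feedback inhibitors Spry1 (1.30) and Dusp6 (0.37) and the ephrin receptor Epha2 (0.75). Without code 2b the 3 falls were called and 0 rises, and with the DESeq2 Wald test or after thinning to the lowest library total 1 rise was called.

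Naive pluripotency genes were lower in the second libraries where they were called. Of 31 tested, 9 fell and none rose, against 3.97% and 4.82% of all genes tested, and 4 fell with no replicate block. The median was -0.35 on the log2 scale against 0.01 for all genes tested, and 16 were lower in all 4 pairs. The summed level of the list was lower in the second library of every pair, at 6563 ± 1265 CPM in the first and 5278 ± 1032 in the second libraries (SD, n = 4), and an exact sign-flip permutation test over 4 pairs, two-sided, gave its smallest possible p of 0.125. Nr0b1, which encodes the nuclear receptor DAX1, fell from 55.8, 59.8, 14.3 and 24.4 CPM to 23.0, 31.3, 3.78 and 7.01 (log2 -1.35, SE 0.20, adjusted p = 0.000717). Klf2, a partner of Klf4, fell from 407, 408, 211 and 266 to 233, 219, 170.3 and 152 CPM. Dppa2, a chromatin factor of early embryonic cells, fell from 113 ± 17.0 to 61.2 ± 13.4 CPM (adjusted p = 0.000219) with no overlap. Gdf3, Utf1, Fbxo15, Dppa5a and Tet1 fell by 0.45 to 0.69 on the log2 scale. The core of the network did not pass the test over all 4 pairs. The log2 values were 0.02 (SE 0.18) for Nanog, -0.04 (SE 0.10) for Esrrb, -0.42 (SE 0.17) for Tfcp2l1 and -0.27 (SE 0.10) for Sox2, with adjusted p from 0.105 to 0.971. By genotype, Tfcp2l1 fell in WT (log2 -0.86, edgeR adjusted p = 0.000759) and was level in KO (0.05). Nanog was at -0.45 in WT and 0.51 in KO, neither called. The genotype difference passed for neither gene (edgeR adjusted p = 0.0612 for Tfcp2l1 and 0.0657 for Nanog). Pou5f1, at the low counts given above, was at -0.96 (SE 0.35, adjusted p = 0.0971) and was lower in 4 of 4 pairs with no overlap.

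Secreted and matrix genes held several of the largest falls. Inhba (chromosome 13, 16011851 to 16031621, plus strand), the subunit of activin A, stood at 38.6, 40.2, 89.8 and 112 CPM in the first and at 12.1, 12.7, 15.1 and 23.1 in the second libraries (log2 -2.12, SE 0.18, adjusted p = 3.27e-06). Bgn, the matrix proteoglycan biglycan, fell from 43.4, 40.6, 64.8 and 102 to 16.1, 13.1, 28.5 and 25.9 CPM (log2 -1.56, SE 0.17). In both genes every first library lay above every second one. The chemokine Cxcl5 fell by 2.24 (SE 0.33) and the chemokine Cxcl12 rose by 1.55 (SE 0.21), from 9.50 ± 2.12 to 27.3 ± 4.13 CPM. Of 22 feeder fibroblast markers tested, 5 fell (Col6a3, Lox, Col5a2, Fbln2 and S100a4) and none rose, against 3.97% and 4.82% of all genes tested. By genotype, 0 were called in the WT pairs, against 2.47% of all genes tested called lower and 3.58% called higher. In the KO pairs 4 markers fell and 1 rose, against 1.49% and 1.85% of all genes tested. The medians were -0.21 in WT and -0.18 in KO, and 0 had a called difference between the genotypes. The 35 markers of that list, 28 of which had counts in all 8 libraries and none of which was at 0 throughout, summed to 767 to 1150 CPM in the first and 713 to 880.1 in the second libraries. That sum was lower in the second library of all 4 pairs. The fibroblast collagens Col1a1, Col1a2 and Col3a1 did not pass the test, and together they stood at 72.2 ± 19.8 CPM in the first and 64.8 ± 20.4 in the second libraries, higher in the second in 2 of 4 pairs. Lum, a fibroblast proteoglycan, was at 0 in 7 of the 8 libraries. In bulk RNA, fewer cells of a type and less RNA per cell cannot be told apart, and the part of feeder RNA in these falls was not tested.

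Genes of sugar use and of amino acid shortage rose in part. Of 19 genes of glucose sensing and glycolysis, 7 rose and 1 fell, and of 21 hypoxia response genes 7 rose and 1 fell, with Ldha, Pgk1 and Pfkfb3 in both lists. Among all genes tested 4.82% were called higher and 3.97% lower. Without code 2a or 2b, 5 glycolysis genes were called, and 3 hypoxia genes without 2a, 4 without 2b and 5 without 2e. Pfkfb3, which makes the activator of phosphofructokinase, went from 36.8 ± 13.3 to 67.0 ± 15.7 CPM (log2 0.87, SE 0.15, adjusted p = 0.00234). Slc2a3, a glucose transporter, went from 728, 732, 728 and 618 to 977, 938, 1155 and 1214 CPM (log2 0.61, SE 0.11). Txnip, a gene that rises with glucose and restrains its uptake, fell from 921, 1051, 904 and 841 to 560.3, 639.7, 534 and 569 CPM (log2 -0.69, SE 0.10, adjusted p = 0.000404). Both Slc2a3 and Txnip separated the positions with no overlap. Of 26 targets of ATF4, the factor switched on by amino acid shortage, 6 rose and 1 fell, with 3 called without 2a and 4 without 2b. In WT 8 of them rose and in KO 2, against 3.58% and 1.85% of all genes tested. The medians were 0.48 in WT and 0.02 in KO, and 0 had a called difference between the genotypes. Chac1, which breaks down glutathione, went from 8.27, 8.48, 4.63 and 3.59 to 35.02, 24.9, 11.6 and 9.58 CPM (log2 1.62, SE 0.25), and Gpt2, a mitochondrial aminotransferase, from 42.5 ± 6.96 to 80.8 ± 11.3 CPM (log2 0.93, SE 0.13). Ddit4, an mTOR inhibitor in both the hypoxia and the ATF4 list, rose by 1.23. Ppp1r15a, which ends the block on translation in stressed cells, fell by 0.87 (SE 0.19). None of 19 unfolded protein response genes was called, with a median of -0.05. Heat shock genes were split, with Hspb8 up by 0.84 and Hsph1 and Hspb1 down by 0.64 and 0.61 on the log2 scale. Of the 17 tested 14 were not called, so 17.6% were called against 8.78% of all genes tested.

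Noncoding RNAs that stay in the nucleus rose together with some imprinted genes. Of 13 nuclear-retained noncoding RNAs tested, 7 rose and 1 fell, against 4.82% and 3.97% of all genes tested. Their median was 0.45, and 4 were called without 2a or without 2b. Neat1 (chromosome 19, 5824708 to 5845478, minus strand), the scaffold of paraspeckles, stood at 75.1, 85.6, 70.4 and 57.4 CPM in the first and at 181, 169.6, 142 and 142 in the second libraries (log2 1.13, SE 0.11, adjusted p = 1.62e-05). Meg3, a maternally expressed noncoding RNA, went from 724, 719, 651 and 623 to 1781, 1787, 1212 and 877 CPM (log2 1.01, SE 0.13). Both were higher in every second library. Firre, an X-linked nuclear RNA, rose by 1.04 and Snhg11 by 0.86. The list made up 0.284% ± 0.0251 of counts in the first and 0.389% ± 0.0469 in the second libraries (SD, n = 4), higher in 4 of 4 pairs, and the exact sign-flip test again gave its smallest p of 0.125. Of 17 imprinted genes 6 rose and none fell, against the same shares of all genes tested, with 2 called without 2a and 4 without 2b. They include Meg3 and Rian of the Dlk1-Dio3 cluster, with Dlk1 itself, a Notch-like ligand, up from 146 ± 8.65 to 217 ± 18.6 CPM. Meg3 is counted in the nuclear-retained list as well. Ribosomal protein genes made up 4.13% ± 0.123 of counts in the first and 3.84% ± 0.174 in the second libraries, lower in all 4 pairs. Of the 51 tested 48 were not called, so 5.9% were called against 8.78% of all genes tested. The part of RNA quality in these values was not tested. The mean GC content of the transcripts' last 500 bases, weighted by counts, was 44.0% ± 0.0781 in the first and 43.9% ± 0.0762 in the second libraries.

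Of 21 genes of SET and of PP2A, the phosphatase that SET inhibits, 4 fell and none rose, against 3.97% and 4.82% of all genes tested. Ppp2r2d, a regulatory subunit, went from 148, 163, 136 and 145 CPM to 99.3, 102, 69.3 and 64.5 (log2 -0.84, SE 0.12, adjusted p = 0.000404) with no overlap. Ppp2r5a, Ptpa and Ppp2r1a fell by 0.75, 0.43 and 0.34, and without code 2a or without 2b only 1 member of the list was called. Of 37 genes of mitosis and DNA replication, 1 rose (Plk1) and 3 fell (Mcm7, Mki67 and Cdc20), which is 10.8% against 8.78% of all genes tested, and without 2a or without 2b only 1 was called. In 49 genes of oxidative phosphorylation 1 was called (2.0%), and of 23 cholesterol (4.3%) and 16 fatty acid synthesis genes (6.2%) 1 each. Of 28 p53 targets 2 rose (7.1%), and of 13 circadian clock genes 1 did (Bhlhe40, 7.7%). The shares of these 5 lists are below the 8.78% of all genes tested. Of 15 genes of the glucocorticoid and cAMP response, 2 fell (Sik1 and Mt2) and none rose, and of 20 YAP targets 4 rose, or 2 without 2d, against 3.97% of all genes called lower and 4.82% called higher.

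**Figure D3:**
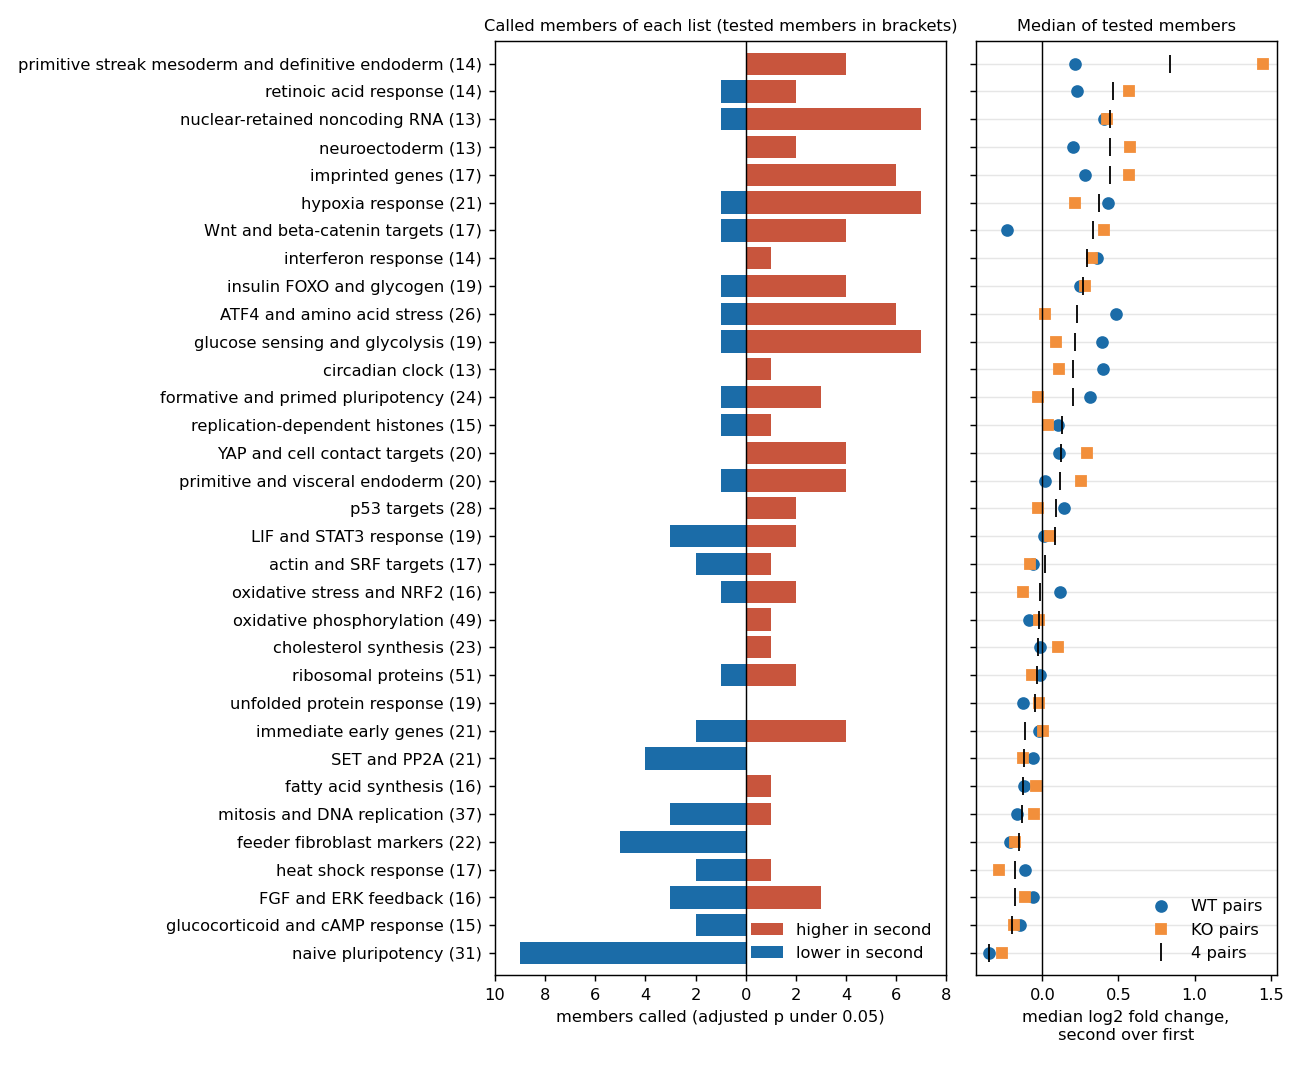
Left, number of members of each list called higher (right of 0) or lower (left of 0) in the second libraries at an adjusted p of 0.05, with tested members in brackets. Right, median log2 fold change of the tested members in WT pairs, KO pairs and all 4 pairs. Lists with at least 10 tested members are shown, from the 9 naive pluripotency genes that fell at the bottom to the streak and mesoderm list, with its separated WT and KO medians, at the top.

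Other genes with the largest changes were taken from those whose average reached 10 CPM in whichever position was higher, so a gene could lie below that level in the lower one. Those that rose included Aatk, a kinase (log2 1.75), the stretch-activated channel Piezo2 (1.67), Kctd11 (1.62), the peptide transporter Tap2 (1.57), Zfp866 (1.54), Mkrn3 (1.54), Tns4 (1.46) and the epoxide hydrolase Ephx2 (1.45). Those that fell included Zfp819 (-1.63), Sall3 (-1.42) and the SOX factor Sox21 (-1.40). For Sall3 the fall was called in WT (log2 -2.37) and not in KO (-0.41, edgeR adjusted p = 0.522). The Sall3 difference between genotypes did not pass (edgeR adjusted p = 0.0605). Nutf2, a nuclear transport factor, showed the largest fall, from 11.7, 14.4, 10.2 and 15.1 to 0.574, 2.27, 1.16 and 1.87 CPM (log2 -3.05, SE 0.36). Snora17, a small nucleolar RNA, fell by 1.61 (SE 0.26). Reads of a small RNA lying within a host gene, and of near-identical gene copies, cannot be assigned with certainty, so Snora17 and Nutf2 are given with that limit. Ptk7, a Wnt co-receptor singled out for having the smallest adjusted p of all genes, stood at 103, 99.2, 187 and 164 CPM in the first and at 249, 251.2, 433 and 399 in the second libraries (log2 1.28, SE 0.10, adjusted p = 1.42e-06).

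Each genotype gave calls of its own. In the 2 WT pairs 634 genes (6.05%) passed and in the 2 KO pairs 350 (3.34%). The count in WT was 29 without code 2a and 52 without 2b, where a single WT pair remains and is assumed to vary like the KO pairs, and 1801 and 1824 without 2d and 2e. In KO it was 1288 without 2d and 815 without 2e, where a single KO pair remains, and 115 without 2a and 261 without 2b. Both genotypes called 130 genes, 20.5% of the WT calls and 37.1% of the KO calls, and 129 of them had the same direction. Inhba fell by 1.66 in WT and fell by 2.40 in KO, Ptk7 rose by 1.31 and 1.25, Neat1 by 1.11 and 1.15, and Klf4 fell by 0.89 and fell by 0.63.

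The change between positions itself differed between genotypes in 20 genes (0.191%), while 866 had an unadjusted p under 0.05. The DESeq2 Wald test called 5, and edgeR called 2 without 2a, 2 without 2b, 607 without 2d and 313 without 2e. Several of the 20 are formative pluripotency genes that rose between positions in WT and not in KO. Otx2, a factor of the formative state, stood at 141 and 131 CPM in the first and 293 and 275 in the second WT libraries, against 207 and 201 in the first and 155 and 162 in the second KO libraries. Its log2 change was 1.07 in WT and -0.36 in KO, and the difference of -1.43 (SE 0.18) passed (adjusted p = 0.000717). Pou3f1, the POU factor OCT6, stood at 45.5 and 47.1 CPM in first and 126 and 131 in second WT libraries. In KO it stood at 133 and 138 and then at 108 and 144, so the second WT libraries lay within the range of the KO libraries. Dnmt3b, a de novo DNA methyltransferase, did likewise, from 644 and 613 to 1082 and 1160.1 CPM in WT and from 1251 and 1148 to 967 and 1037 in KO. Fgf15, a growth factor of the early neural plate, stood at 13.1 and 19.99 and then 72.3 and 53.04 CPM in WT, while its KO libraries lay between 23.0 and 33.3. Tbx3, a naive factor, mirrored these genes in WT, where it fell from 298 and 301 to 86.1 and 97.5 CPM, with 150.0 and 161 and then 111 and 117 in KO.

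Lefty1, an inhibitor of Nodal, changed in opposite directions in the genotypes. It rose from 53.8 and 61.6 to 145 and 126 CPM in WT and fell from 409 and 303 to 228 and 182 in KO, with a difference of -1.99 (SE 0.20, adjusted p = 2.29e-05). Of the 20 genes, Lefty1 alone kept its call under each alternative setting tried. Other genes changed in WT alone or in KO alone by the coefficients. Mras, a Ras-like protein, fell in WT from 84.8 and 87.2 to 25.3 and 32.2 CPM and lay between 19.4 and 20.1 in the 4 KO libraries. Pdgfa, a growth factor made by ESCs, fell in WT (log2 -1.09) and was at 0.47 in KO, with a difference of 1.57 (SE 0.22). Of 24 formative and primed genes tested, 10 rose and 1 fell in WT, while 1 rose and 4 fell in KO, and 5 had a called difference between the genotypes. Among all genes tested 3.58% were called higher and 2.47% lower in WT, and 1.85% and 1.49% in KO.

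**Figure D4:**
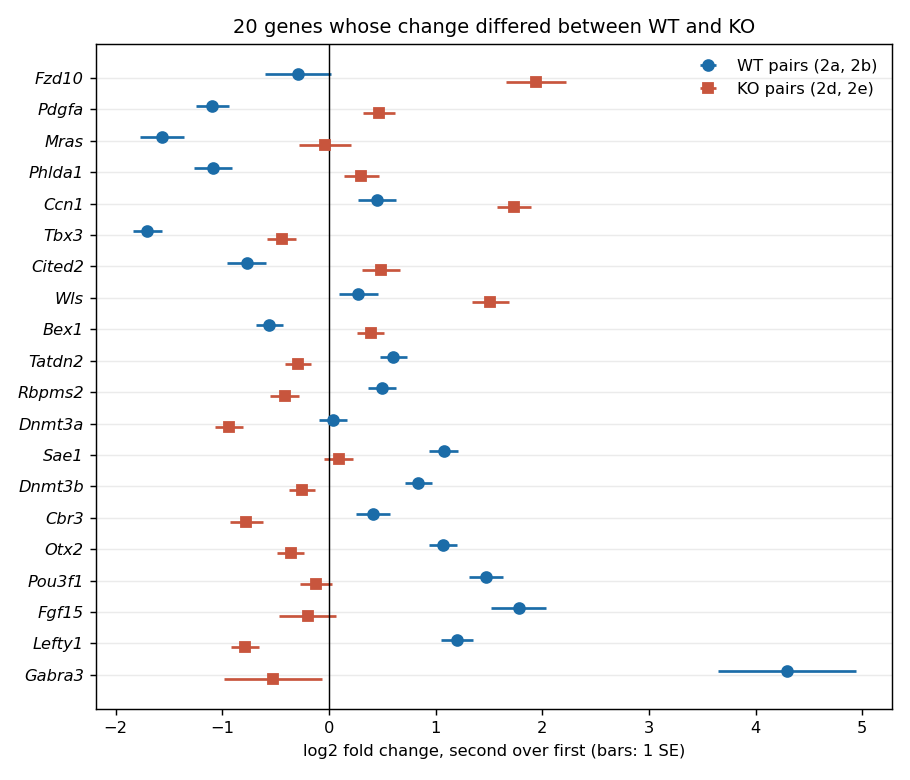
Log2 fold change of second over first libraries, with 1 SE, in the WT pairs (circles) and the KO pairs (squares) for the 20 genes with a called difference. Otx2, Pou3f1, Dnmt3b, Fgf15 and Lefty1 lie right of 0 in WT and left of 0 in KO, while Fzd10, Wls and Ccn1 lie far to the right in KO.

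Some primitive streak and Wnt target genes rose between positions in KO. The streak, mesoderm and definitive endoderm list had 7 of 14 members called higher in KO and 0 in WT, against 1.85% and 3.58% of all genes tested, with medians of 1.45 and 0.22 on the log2 scale, though no member passed the test of the difference. Of 17 Wnt and beta-catenin targets tested, 6 rose (Sp5, Axin2, T, Fgf8, Id2 and Sox4) and 0 fell in KO, while 3 rose (Lef1, Id2 and Sox4) and 2 fell (Notum and Bmp4) in WT, and none passed the test of the difference. Among all genes tested 1.85% rose and 1.49% fell in KO, and 3.58% and 2.47% in WT. Over all 4 pairs 4 of the 17 rose and 1 fell, against 4.82% and 3.97% of all genes tested, and 3 were called without 2a. The gene that fell is Notum, a secreted Wnt inhibitor, from 13.9 ± 6.82 to 6.67 ± 2.31 CPM (SD, n = 4, edgeR adjusted p = 0.0237). With no replicate block 1 member of the list rose and 0 fell. Without 2a, without 2b or with the DESeq2 Wald test 0 fell as well. Id2 and Sox4 rose by 0.58 and 0.74 in WT and by 0.71 and 0.85 in KO. Sp5, a direct Wnt target, stood at 4.82 and 6.96 CPM in first and 5.74 and 6.80 in second WT libraries. In KO it went from 11.1 and 7.89 to 43.1 and 41.4 CPM (log2 2.13, adjusted p = 0.000286), and the difference between genotypes was 2.07 (adjusted p = 0.0944). Fgf8, a streak ligand, went from 15.3 and 21.5 to 58.2 and 49.5 CPM in KO and was between 12.1 and 16.8 in WT. Brachyury (T), picked after its values were seen, stood at 5.55 and 3.59 CPM in first and 35.8 and 23.4 in second KO libraries, with 6.20, 7.08, 11.5 and 6.35 in WT. Sox17, an endoderm factor, passed over all 4 pairs (log2 1.16, SE 0.21, adjusted p = 0.00255). The Wnt receptor Fzd10 and Wls, which carries Wnt ligands to the surface, did pass the test of the difference. Fzd10 went from 13.0 and 9.32 to 43.9 and 43.0 CPM in KO and was between 11.03 and 17.0 in WT (difference 2.24, SE 0.42, adjusted p = 0.0274). Wls went from 37.0 and 45.2 to 115 and 118 CPM in KO and lay between 36.2 and 47.6 in WT (difference 1.24, SE 0.26, adjusted p = 0.0462). Ccn1, a matrix protein and YAP target, went from 73.6 and 60.2 to 208 and 242 CPM in KO and from 32.4 and 48.3 to 44.8 and 65.3 in WT. Over all 4 pairs, 4 members of the streak list rose, and without 2d or without 2e 1 did.

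KO was also compared with WT within each position, and some formative genes gave a different answer in each. In the first libraries 481 of 11261 genes tested (4.27%) passed, 286 higher and 195 lower in KO, and in the second libraries 802 (7.12%) passed, 454 higher and 348 lower. The count in the first libraries was 99 without 2a, 32 without 2b, 666 without 2d and 1266 without 2e. In the second libraries it was 115, 97, 1454 and 1047 in the same order. Of these calls 208 were shared, 43.2% of those in the first and 25.9% of those in the second libraries, and 205 had the same direction. Klf4 was lower in KO in each, by 1.09 on the log2 scale in the first (adjusted p = 1.86e-05) and by 0.84 in the second libraries (adjusted p = 0.000322). Pou3f1 was higher in KO by 1.55 in the first libraries (adjusted p = 1.29e-06) and stood at -0.02 in the second (adjusted p = 0.965). Otx2 was called in opposite directions, 0.60 higher in KO in the first and -0.84, thus lower, in the second libraries (adjusted p = 0.00429 and 5.20e-05). Dnmt3b gave 0.94 and -0.16, Tbx3 -0.94 and 0.31, and Lefty1 2.61 and 0.60. Sp5 was not called in the first (log2 0.60, adjusted p = 0.421) and was higher in KO in the second libraries (2.73, adjusted p = 5.04e-06). For Otx2, Pou3f1, Dnmt3b, Tbx3 and Lefty1 this difference is the tested one given above, and for Sp5 the difference did not pass. The comparisons between positions and between genotypes share these 8 libraries.

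The libraries without a partner resembled a position each. The KO1 library 2c correlated at 0.9819 with the second and at 0.9614 with the first library of 2d, also KO1. The KO2 library 2f correlated at 0.9767 with the first and at 0.9676 with the second library of 2e, also KO2. Of the 505 genes higher in second libraries, 482 were higher in 2c than in 2f, with a median difference of 0.49 in log2(CPM + 1), and of the 416 lower genes 406 were lower in 2c, with a median of -0.50. Among all genes tested 2c was the higher in 49.0%. Socs3 was at 37.4 CPM in 2c and 15.3 in 2f, Ier3 at 139 and 62.3, Inhba at 15.5 and 105, Bgn at 24.7 and 98.5, Neat1 at 118 and 72.9, and Sp5 at 51.6 and 9.27. These libraries were not used to choose the 921 genes. They differ in knockout line as well, so line and position cannot be told apart in this pair, and the labels give neither a position.

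**Figure D5:**
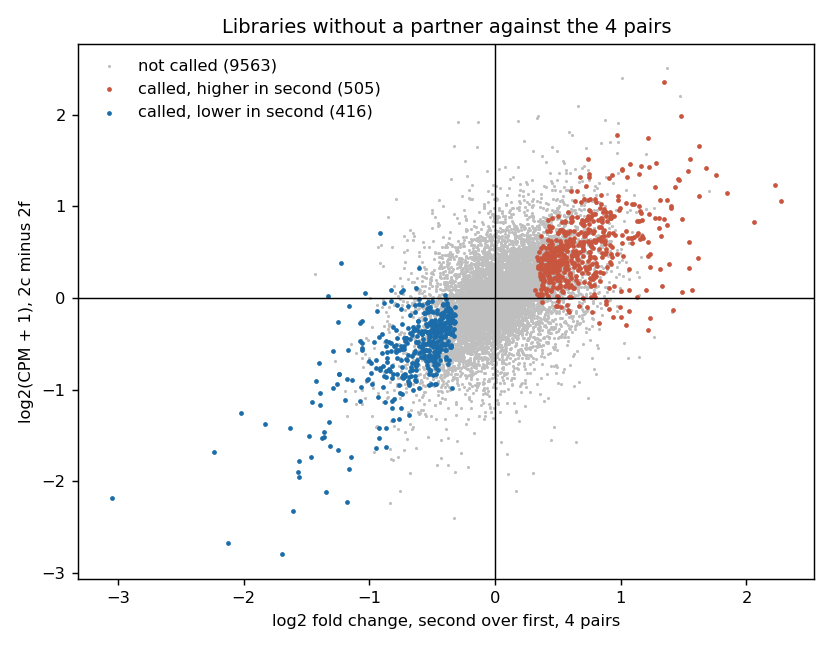
Each point is a gene tested, with its log2 fold change of second over first libraries across and the log2(CPM + 1) of 2c minus 2f upwards. Genes called higher in second libraries (505) lie mostly above 0 and genes called lower (416) mostly below 0.

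Elsewhere in the series the marker genes had levels of their own, given in CPM scaled over all 23 libraries. On that scale Socs3 was at 5.62 to 12.9 in the 4 first and 33.4 to 64.7 in the 4 second libraries. It was at 119.8 and 131 in WT and 40.2 to 70.1 in KO libraries of the first set, at 53.3 to 66.1 in KH2 cells with or without doxycycline, and at 27.3 to 29.9 after retinoic acid. The 4 first libraries thus had the lowest Socs3 of the series. Klf4 was at 289 and 357 in first-set WT, 87.4 to 124 in first-set KO, 1064 to 1322 in KH2 and 55.4 to 85.4 after retinoic acid, so its levels in second WT libraries, 288 each, were just under the lower of the first-set WT values. Ppp1r3b was at 3.45 to 7.52 in the first set, at 18.6 to 22.6 in KH2 and at 17.2 to 21.8 after retinoic acid, above the 0 to 3.83 of the first libraries in all but a single WT library of the first set. Rasd1 was at 0.694 to 3.76 in the first set and at 3.17 to 6.73 in KH2. Over genes, the change between positions correlated at 0.201 with KO over WT in the first set (9393 genes) and at 0.043 with the effect of doxycycline in KH2 (10296 genes). These are descriptions across genes, which are not independent replicates.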

How the data were processed

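Polyadenylated RNA of 23 mouse ESC libraries was measured by QuantSeq 3′ tag sequencing from 500 ng of total RNA, and 8 libraries were compared here. The deposited values are raw counts per gene, made by the authors with featureCounts 1.6.0 on Ensembl 97 of GRCm38, per the file headers. STAR 2.5.4b and Subread 2.0.0 are named in the submitters' processing notes. For trimming of reads, no source used here gives a tool. Files held 55573 genes, 55394 of them with a symbol in the Ensembl tables.

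First and second libraries were compared with edgeR 4.0.16 (R 4.3.3): quasi-likelihood F tests, TMM scaling, filterByExpr (minimum count 10, minimum total 15), robust dispersions and the code as a block. WT and KO coefficients and their difference came from a fit with position by genotype, and KO against WT in each position from the means of 4 groups over the same 8 libraries, without the block. P-values were adjusted by Benjamini-Hochberg over all genes tested, at 0.05. SE is the log2 fold change over the root of F. CPM were scaled by TMM over the 10 untreated set 2 libraries. Summed levels were tested over pairs with a two-sided exact sign-flip permutation test, whose smallest p is 0.125.

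Named genes were the 4 markers, Set and 5 core pluripotency genes, the 12 highest and 12 lowest called genes with the same sign in 4 pairs and an average of 10 CPM or more in whichever position was higher, up to 4 called members of each of 34 lists with at least 2 calls, and the 3 highest and 3 lowest differences between genotypes. Members of the comparison, lists and rules were chosen with earlier results of these data known. On simulated data with 200 changed genes the main fit recovered 88.8% of 2-fold and 100% of 4-fold changes over 10484 genes with 5.64% of calls false. The genotype difference recovered 30.0% and 88%, and KO against WT in first libraries 70.0% and 91% over 11261 genes. The simulated libraries had a single level per gene scaled to library size, an assumed spread and equal folds in all changed libraries. They held no other difference between codes, lines or genotypes, so these rates may not hold for the real libraries. Alternatives were DESeq2 1.42.0 size factors and Wald test, other filters, thinning to the lowest total, each code left out, and other blocks. Promoter letters came from RefSeq. Tables and figures used Python 3.11.15, pandas 2.3.3, numpy 2.4.6, scipy 1.17.1 and matplotlib 3.10.9.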

Additional observations from a re-analysis of the deposited data

Results flagged for a closer look

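Of 150 groups of 4 values looked at (differences of the 4 pairs for each named gene, and library measures in each position), 6 had a value far from the other 3, where chance alone sets about 1 in 20 apart. The first library of 2b had 7941952 counts, far above the other first libraries. In Sox2 the pair 2e stood apart at -0.608 on the log2 scale, in Sox21 and Klf2 the pair 2d at -0.847 and -0.308, and in Actb the pair 2d at -0.165. In Lamb1 the pair 2b was flagged at 0.375, although the other pairs were close to it, at 0.401 to 0.403. In each of these 5 genes the pair set apart had the sign of the other 3.

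In 20 genes the change from first to second library differed between KO and WT by the test of that difference. The log2 change in KO minus that in WT was 1.238 for Wls, 1.285 for Ccn1, 1.258 for Tbx3, 1.530 for Mras, 2.236 for Fzd10, 1.391 for Phlda1, 1.566 for Pdgfa, 1.257 for Cited2 and 0.949 for Bex1. It was -0.985 for Sae1, -0.975 for Dnmt3a, -1.976 for Fgf15, -1.595 for Pou3f1, -4.822 for Gabra3, -1.094 for Dnmt3b, -1.428 for Otx2, -0.893 for Tatdn2, -1.186 for Cbr3, -0.915 for Rbpms2 and -1.986 for Lefty1. Gabra3 rests on few counts, with 0.689 and 0.380 CPM in the first WT libraries. Among the 20, Lefty1 kept its call without code 2a, and Lefty1 and Fgf15 kept theirs without 2b, where the remaining WT pair is assumed to vary like the KO pairs.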

How the results depend on the processing

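With DESeq2 size factors in place of TMM, the 6 counts of called genes moved by less than 1.5 times. The DESeq2 Wald test called 470 genes between positions, 105 in WT, 36 in KO, 5 for the difference between genotypes, and 216 and 401 for KO against WT in first and second libraries. After thinning to the lowest total of 1423772 counts these were 678 (within 1.5 times), 390, 202, 7, 308 and 532. The genotype difference also gave 7 calls with at least 10 CPM on average and 72 with no low-count filter, and KO against WT fitted on the libraries of that position gave 162 in the first and 1743 in the second. With codes left out in turn the counts ran from 335 to 1067 between positions, 29 to 1824 in WT, 115 to 1288 in KO, 2 to 607 for the difference, 32 to 1266 for KO against WT in first and 97 to 1454 in second libraries. The cause of these moves was not tested.

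The shared code did not show as a pairing in the data: the deviation of 2a from 2b correlated at 0.045 between first and second libraries and that of 2d from 2e at -0.071. With no replicate block 392 genes were called between positions, 535 in KO and 52 for the difference (797 in WT), and with genotype in place of the code 1158. Of 107 named genes called between positions, 57 were called with no replicate block, 62 kept direction and call with each code left out, 43 under every alternative, and none reversed. Genes not called whose sign turned were Nanog (-0.150 to 0.246 with codes left out, -0.088 after thinning, -0.047 with no replicate block), Esrrb (-0.109 to 0.008, and 0.071 after thinning), Lefty1 (-0.222 to 0.485, and -0.252 with no replicate block) and Pdgfa (-0.560 to 0.032), each with an adjusted p above 0.05. Depth limits genes near the floor of 3 counts, such as Rasd1 and Ppp1r3b, and that floor covers counting error only.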
